A study of Mus musculus with 2 samples.

Results

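The cells described here are the macrophages of the reperfused mouse heart that carried much C1q RNA but little of Arg1, Ccl24 or 4 resident macrophage genes. They numbered 479 of 11297 cell barcodes. A barcode was taken when it held at least 4000 unique molecular identifiers (UMIs, each standing for 1 captured RNA molecule), no more than 20% mitochondrial UMIs and less than 0.1% of its UMIs in 6 neutrophil genes. It further needed at least 20 UMIs of C1qa, C1qb and C1qc together, fewer than 5 of Arg1, fewer than 10 of Ccl24 and fewer than 3 of Lyve1, Folr2, Cbr2 and Timd4 together. The sham library gave 303 such cells of 6210 barcodes and the splenectomy library 176 of 5087. The rule splits all cells with 20 or more C1q UMIs into 4 classes. Those with 3 or more UMIs of the 4 resident genes are called the resident-gene class (309 and 277 cells, sham first here and below), those of the rest with 10 or more Ccl24 UMIs the Ccl24 class (28 and 70 cells), and those then left with 5 or more Arg1 UMIs the Arg1 class (250 and 171 cells). The remainder are the C1q-high Arg1-low cells. The cells were thus chosen by measured UMIs of these genes, whose levels are given as a description. The name C1q-high states the limit and not a rank among the classes. The median cell held 76 and 72 C1q UMIs, against 167 and 173 in the resident-gene class. The medians were 66 and 62 in the Arg1 class and 83 and 59.5 in the Ccl24 class.

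Both libraries were made from hearts of wild type male C57BL/6J mice aged 8 weeks. The question was what loss of the spleen, a store of monocytes, does to leukocytes of the heart after ischaemia and reperfusion. All animals had 60 min of occlusion of the left anterior descending artery and 24 h of reperfusion, so no uninjured heart was compared. One group had had its spleen removed and the other sham surgery, and cells carrying the leukocyte protein CD45 were drawn with magnetic beads. With 1 library a group and no stated number of animals in it, no test between groups was possible. Every difference between the libraries therefore describes these 2 libraries, and intervals are exact 95% intervals that cover counting error only, not differences between cells or animals. The C1q-high Arg1-low cells held 3969605 and 2323936 UMIs in all, with medians of 12464 and 12238 UMIs and 2875 and 2834 genes per cell and 2.01% and 2.51% mitochondrial UMIs. None of the 9 barcodes present in both libraries belonged to them.

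C1q is the recognition protein of the classical complement pathway, is assembled from the products of C1qa, C1qb and C1qc, and is made mainly by macrophages, which also use it to tag dying cells for uptake. The heart holds resident macrophages, many of which carry LYVE1, FOLR2 and TIMD4, and after infarction it is entered by Ly6C-high monocytes that turn into macrophages. Arginase 1, the product of Arg1, is a classic enzyme of wound-healing macrophages, and MHC class II proteins show peptides of engulfed material to helper T cells.

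Csf1r, Cd68 and Cd14 were found in most of these cells, while Adgre1, Mertk and 3 of the 5 genes given as the cells' own markers were found in a minority at equal depth. To compare cells of different depth, each was thinned to 4000 UMIs drawn at random, and shares of cells with at least 1 UMI are given after thinning, with the share before thinning where it is named. Csf1r, the receptor for the main macrophage growth factor, was found in 72.6% and 77.3% of cells, Cd68 in 80.2% and 73.9%, Cd14 in 97.0% and 98.3% and the F4/80 gene Adgre1 in 40.3% and 37.5%. Mertk, a receptor for the uptake of dying cells, was found in 5.94% and 8.52%. Before thinning the shares were 96.4% and 96.6% for Csf1r, 71.6% and 64.8% for Adgre1 and 18.5% and 18.8% for Mertk. As a background for free RNA, cells with 3 or more UMIs of B or T cell genes and fewer than 3 of Cd68, Csf1r, Adgre1 and Mertk are used, called lymphocyte-rule cells (73 and 89 cells with medians of 5545 and 5979 UMIs). Cd14, which did not choose them, was found in 17.8% of those of the sham library. Endothelial markers summed to 1262 and 1424 counts per 1000000 UMIs (CPM) in them, so they are not lymphocytes alone. C1qa was at 2266 and 2355 CPM over the summed UMIs of the class and C1qc at 1535 and 1552 CPM, both part of the rule. Gdf15, which encodes a stress-induced cytokine, was found in 13.2% (95% interval 9.60 to 17.5) and 14.8% (9.88 to 20.9) of cells, and in 19.5% and 19.3% before thinning. Mmp12, the macrophage elastase, was found in 7.59% (4.87 to 11.2) and 12.5% (8.00 to 18.3), and in 12.2% and 16.5% before thinning. The growth factor gene Igf1 was found in 11.2% (7.90 to 15.3) and 15.9% (10.8 to 22.2), and in 18.5% and 22.7% before thinning. Of the sham lymphocyte-rule cells, none held a UMI of Gdf15 or Igf1 and 2.74% held Mmp12. By the limit of 3 counts, 0 of 73 cells allows up to 4.11% of cells with a UMI, and says nothing of cells expressing the genes. After thinning, 227 of 303 sham cells (74.9%) and 120 of 176 splenectomy cells (68.2%) held none of Gdf15, Mmp12 and Igf1, and 4 and 1 cells held all 3.

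Markers of mast cells, dendritic cells and fibroblasts were at or near 0, while monocyte and neutrophil markers were not. All 5 mast cell and basophil markers were at 0 in both libraries, and dendritic cell markers summed to 7.31 and 11.2 CPM, with Flt3, Clec9a, Zbtb46 and Siglech at 0 in the sham cells. Resident macrophage markers outside the rule were mixed, since Vsig4 was found in 1 cell of each library and Cd163 stood at 9.32 and 15.5 CPM. Gas6 stood at 18.4 and 24.96 CPM, and F13a1 was higher, at 214 and 384 CPM. The 8 resident markers, those of the rule included, summed to 266 and 452 CPM, most of it F13a1. They summed to 345 and 466 CPM in cells under 20 C1q UMIs and to 2592 and 3281 CPM in the resident-gene class. Of the C1q-high Arg1-low cells, 86 of 303 and 77 of 176 held 5 or more UMIs of these markers, which does not make them resident macrophages. Classical monocyte markers summed to 2588 and 1933 CPM, with 186 of 303 and 99 of 176 cells holding 5 or more of their UMIs. Neutrophil markers summed to 414 and 787 CPM, with all 9 above 0 and 110 and 73 cells holding 5 or more of their UMIs. They summed to 373 and 336 CPM in the lymphocyte-rule cells, so the sham value lies near this background. In the resident-gene class they summed to 410 and 408 CPM and in the Arg1 class to 386 and 887 CPM. The 5 fibroblast markers summed to 2.77 and 3.01 CPM. "Lyve1-negative" and "Arg1-low" are matters of the rule, and 203 and 125 of the cells held no Arg1 UMI at all.

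C1q-high Arg1-low cells made up a smaller share of C1q-positive cells in the splenectomy library. Among cells with 20 or more C1q UMIs they were 303 of 890 (34.0%, 30.9 to 37.3) in the sham library and 176 of 694 (25.4%, 22.2 to 28.8) in the splenectomy library. Among all cells past the limits on UMIs, mitochondrial share and neutrophil genes they were 10.9% (9.78 to 12.1) of 2776 and 6.76% (5.82 to 7.79) of 2604. Over the same C1q-positive cells the Arg1 class stood at 28.1% and 24.6%, the resident-gene class at 34.7% and 39.9%, and the Ccl24 class at 3.15% and 10.1%. Set per 10000 UMIs in place of fixed UMI numbers, the rule gave 40.3% and 30.7% and kept 89.4% and 90.3% of the cells. The bead selection and the fixed UMI limits can set such shares, and their part in the difference was not tested.

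**Figure D1:**
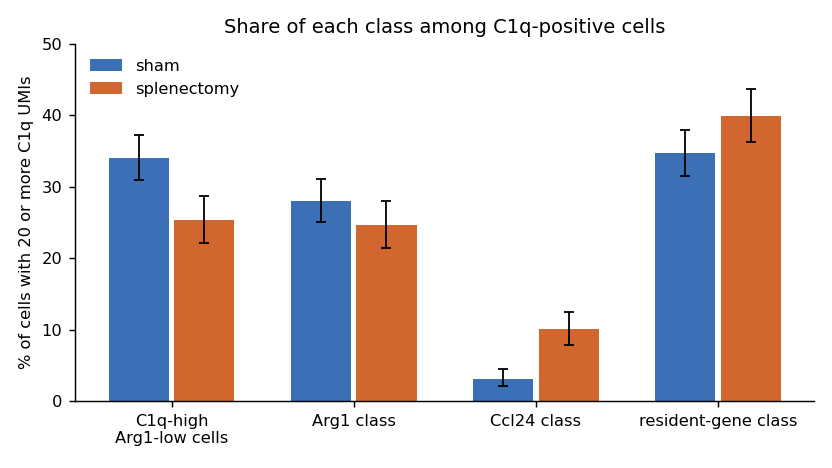
Share of the 4 classes among cells with 20 or more C1q UMIs, in percent, for the sham library (blue, 890 cells) and the splenectomy library (orange, 694 cells), with exact 95% intervals as bars. The C1q-high Arg1-low cells stand at 34.0% and 25.4%.

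The limits cut through graded levels. The 33 sham and 13 splenectomy cells with 3 or 4 Arg1 UMIs, just inside the rule, held 8560 and 10770 CPM of Spp1 and 280.2 and 375 CPM of H2-Ab1. The 13 and 7 cells just outside, with 5 or 6 Arg1 UMIs, held 5198 and 8709 CPM of Spp1 and 89.2 and 112 CPM of H2-Ab1. At the C1q limit, the 30 and 22 cells with 20 to 29 UMIs held 1124 and 1708 CPM of H2-Ab1, against 1096 and 1661 CPM in the 50 and 34 cells with 10 to 19. At the resident-gene limit, 13 and 15 cells with 2 UMIs held 55.4 and 170 CPM of Igf1 and 24 and 17 cells with 3 UMIs held 171 and 133 CPM.

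MHC class II genes set these cells apart from the other 3 classes in both libraries. Per class, H2-Aa, which encodes the alpha chain of the I-A molecule, stood at 1557 and 1599 CPM in the C1q-high Arg1-low cells and at 158 and 173 CPM in the Arg1 class. H2-Eb1, the beta chain of I-E, stood at 1425 and 1481 CPM against 140 and 132 CPM. Cd74, the invariant chain that guides class II molecules to the endosome, stood at 5350 and 5650 CPM, against 743 and 829 CPM in the Arg1 class, 859 and 790 CPM in the Ccl24 class and 1973 and 1330 CPM in the resident-gene class. Class against class is a description here, since the classes were cut from the same counts, and a gene is counted as higher or lower when it differed at least 2-fold the same way in both libraries. The median UMIs per cell were 18719.5 and 18601 in the Arg1 class, 18301 and 21142.5 in the Ccl24 class and 14979 and 15175 in the resident-gene class, above those of the C1q-high Arg1-low cells. Among all 5231 genes measured against the Arg1 class, 2.12% were higher and 0.822% lower. Of the 11 measured genes of the MHC class II list, 6 were higher than in the Arg1 class and none lower, with median log2 ratios of 1.07 and 1.03, beside -0.01 for all genes. Against the Ccl24 class 5 of 11 were higher (2.44% of 4554 genes), with medians of 0.71 and 1.42, and against the resident-gene class 6 of 12 (1.36% of 6750 genes), with medians of 1.13 and 1.66.

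The stretches before the start sites of H2-Aa and H2-Eb1 are shown because they hold the Y box, a short element of class II promoters bound by the factor NF-Y. They cover the 250 bases before each gene's start, from RefSeq on GRCm38.p6, read 5′ to 3′ along the gene, with the Y box in capitals. H2-Aa lies on the minus strand of chromosome 17 (chr17:34287824-34288073) and its Y box begins at -51, and H2-Eb1 lies on the plus strand (chr17:34305617-34305866) with its Y box at -62.
H2-Aa: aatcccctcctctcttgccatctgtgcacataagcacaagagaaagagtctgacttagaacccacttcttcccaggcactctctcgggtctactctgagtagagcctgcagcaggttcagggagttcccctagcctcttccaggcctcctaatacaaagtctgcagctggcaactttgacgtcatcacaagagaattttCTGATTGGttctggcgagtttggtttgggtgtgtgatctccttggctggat
H2-Eb1: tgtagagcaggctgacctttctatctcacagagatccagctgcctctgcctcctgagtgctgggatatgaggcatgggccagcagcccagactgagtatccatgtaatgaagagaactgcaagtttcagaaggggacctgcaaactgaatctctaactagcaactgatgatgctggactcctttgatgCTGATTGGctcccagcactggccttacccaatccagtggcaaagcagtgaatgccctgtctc
The letters searched were CTGATTGG on both strands, found in 3.83% of 32851 such stretches of the genome. Only H2-Aa, H2-Ab1, H2-Eb1, H2-DMa and H2-DMb1 were looked up. H2-Ab1 had no entry, and H2-DMa and H2-DMb1 had no exact match in this window. A match describes the letters and no binding was measured.

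Against the Arg1 class, the cells carried more RNA of several other surface and secreted proteins and less of some wound-healing genes. Mgl2, a galactose-type lectin of macrophages and dendritic cells, stood at 183 and 261 CPM against 6.87 and 0.63 CPM. Cd72, an inhibitory receptor, stood at 156 and 83.5 CPM against 12.3 and 4.12 CPM. The prostaglandin-degrading enzyme Hpgd stood at 45.8 and 58.5 CPM against 1.82 and 0.95 CPM, and the platelet-derived growth factor gene Pdgfb at 32.0 and 48.2 CPM against 3.03 and 3.81 CPM. St3gal6, a sialyltransferase, and Tmem176b, a membrane protein gene, completed the 8 genes with the highest ratios, beside H2-Aa and H2-Eb1. Lowest were podoplanin (Pdpn, 43.6 and 52.5 CPM against 271 and 294 CPM), the neutrophil-attracting chemokine gene Cxcl3 (168 and 349 against 1093 and 1944 CPM), coagulation factor VII (F7, 15.4 and 7.75 against 62.1 and 60.3 CPM) and the phosphodiesterase Pde4d (11.6 and 6.45 against 42.4 and 40.3 CPM). Osteopontin (Spp1) was at 3326 and 3569 CPM against 14247 and 11347 CPM.

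Of 15 measured wound-healing genes outside the rule, 4 were lower than in the Arg1 class (Spp1, Fn1, Ecm1 and Hmox1) and none higher, with medians of -0.72 and -0.51. Among all genes 0.822% were lower than in that class and 2.12% higher. Of 29 glycolysis and hypoxia genes 3 were lower (Pfkl, Bnip3 and Hilpda) and none higher, with medians of -0.63 and -0.68. Of 30 immediate early and heat-shock genes 6 were higher and none lower. They were Jun, Egr1, Atf3, Klf2 and the inducible HSP70 genes Hspa1a and Hspa1b, with Hspa1a at 189 and 174 CPM against 17.4 and 19.7 CPM. Such genes can also be induced while tissue is taken apart, which was not tested. Of 44 nuclear genes of oxidative phosphorylation, 0 were higher and 0 lower, with medians of -0.10 and -0.06. Against the resident-gene class, the immediate early and heat-shock list leaned the other way. Of 31 measured genes 0 were higher and 5 lower, beside 1.36% and 4.04% of all genes, with medians of -0.28 and -0.20.

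The Ccl24 class, with 28 sham cells, held less RNA of Mgl2 and of class II genes than these cells. Mgl2 stood at 15.5 and 7.71 CPM there and H2-Ab1 at 161 and 198 CPM, against 1728 and 1711 CPM in the C1q-high Arg1-low cells. Mmp12 had no UMI in the sham Ccl24 class and 10.5 CPM in the splenectomy one, beside 89.4 and 127 CPM. The oxysterol-guided receptor Gpr183, St3gal6 and Pdgfb were also among the 8 highest. Cxcl3 (1616 and 2233 CPM), platelet factor 4 (Pf4, 4000 and 6946 CPM against 770 and 1276 CPM), Pdpn and the cholesterol exporter Abca1 (223 and 254 against 64.0 and 67.1 CPM) were higher in the Ccl24 class. Among all genes 1.32% were lower in the C1q-high Arg1-low cells than there, and of 26 glycolysis and hypoxia genes 5 were, including Pgk1 and Hif1a.

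Against the resident-gene class, the cells carried monocyte genes and lacked much of the resident programme. Of 23 measured genes of the recruited monocyte list, 10 were higher (1.36% of all genes) and none lower, with medians of 1.07 and 1.18. The list's medians were 0.13 and -0.19 over the Arg1 class and 0.02 and 0.07 over the Ccl24 class. Among the 10 higher genes Ly6c2, the Ly6C antigen of inflammatory monocytes, stood at 302 and 181 CPM against 82.8 and 43.1 CPM. Ccr2, the receptor that brings monocytes from the blood, stood at 346 and 308 CPM against 150 and 89.1 CPM. The other leading genes were argininosuccinate synthase (Ass1, 94.2 and 63.3 against 19.3 and 11.8 CPM), Mcemp1, Gngt2, Plbd1, Klra2, Napsa and Cytip. Of 23 resident programme genes outside the rule 17 were lower (4.04% of all genes) and none higher, with medians of -2.05 and -2.13. Among these and the other leading genes lower here were the chemokine gene Ccl8 (3.53 and 0 CPM against 335 and 284 CPM), the ficolin gene Fcna (4.28 and 2.58 against 97.7 and 109 CPM), Rcn3 and the complement receptor gene Vsig4 (3.02 and 0.43 against 61.3 and 75 CPM). Ccl8 had no UMI in the 176 splenectomy cells, and by the limit of 3 counts this allows up to 1.70% of cells with a Ccl8 UMI, which is no limit on cells expressing it.

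Gdf15 and Mmp12 did not separate the cells from the resident-gene class. Gdf15 stood at 166 and 227 CPM in the C1q-high Arg1-low cells and at 182 and 219 CPM in the resident-gene class, against 25.1 and 5.39 CPM in the Arg1 class and 31.0 and 12.6 CPM in the Ccl24 class. Mmp12 stood at 81.2 and 112 CPM in the resident-gene class and at 31.3 and 12.4 CPM in the Arg1 class. Igf1 was higher in the resident-gene class, at 126 and 136 CPM, than in the C1q-high Arg1-low cells, at 38.3 and 54.2 CPM, and was at 4.85 and 1.59 CPM in the Arg1 class. Mgl2 likewise stood at 201 and 238 CPM in the resident-gene class.

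**Figure D2:**
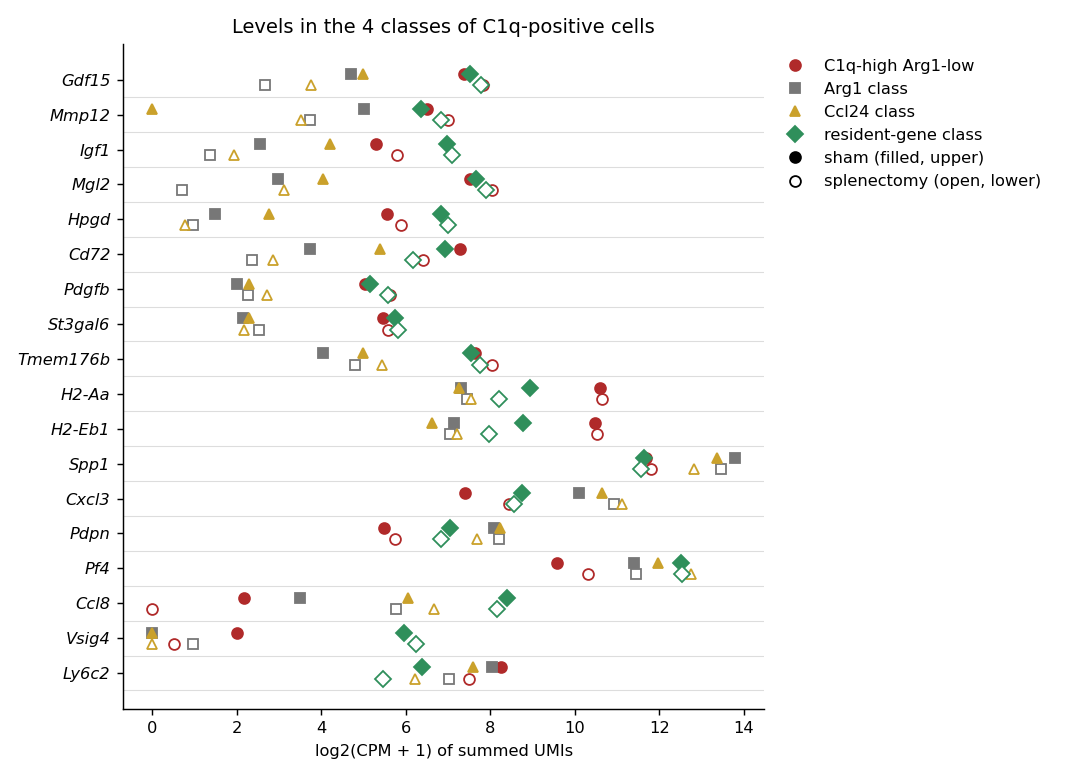
Levels of 18 genes in the 4 classes, as log2(CPM + 1) of summed UMIs, with the sham library as filled symbols above and the splenectomy library as open symbols below. H2-Aa and H2-Eb1 are highest in the C1q-high Arg1-low cells in both libraries, while Gdf15, Mmp12 and Mgl2 lie close to the resident-gene class.

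The cells were not uniform, and their MHC class II content ran over a wide range. At 4000 UMIs per cell, H2-Aa, H2-Ab1, H2-Eb1 and Cd74 together gave a lowest value of 0, a median of 16 and a highest value of 302 UMIs in the sham library, and 0, 24.5 and 236 in the splenectomy library. In the Arg1 class the medians were 1 and 1, in the Ccl24 class 1 and 0, and in the resident-gene class 2 and 1. H2-Ab1 was found in 60.1% (54.3 to 65.6) and 64.8% (57.2 to 71.8) of C1q-high Arg1-low cells, and in 71.0% and 74.4% before thinning. The lymphocyte-rule cells take in B cells, which make class II, and 49.3% of them held H2-Ab1 in the sham library, so they are no blank for this gene. The monocyte genes Ly6c2, Plac8 and Ccr2 together gave medians of 3 and 1 UMIs, with highest values of 46 and 33.

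With a line at 10 UMIs for each set, the combination that differed most between the libraries was low class II with high monocyte genes. It held 52 of 303 sham cells (17.2%, 13.1 to 21.9) and 9 of 176 splenectomy cells (5.11%, 2.36 to 9.49). Cells with high class II and low monocyte genes were 49.5% and 57.4%, those high in both 8.58% and 5.11%, and those low in both 24.8% and 32.4%. These groups are ranges of 2 counts and not cell types.

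**Figure D3:**
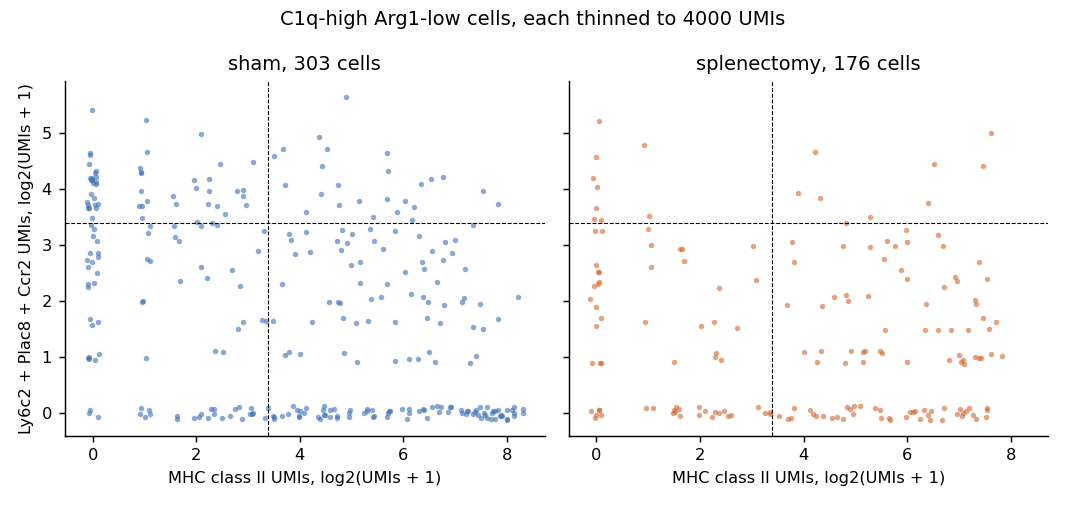
Each point is 1 C1q-high Arg1-low cell thinned to 4000 UMIs, with summed UMIs of 4 MHC class II genes on the horizontal axis and of Ly6c2, Plac8 and Ccr2 on the vertical axis, both as log2(UMIs + 1), and with small random offsets; dashed lines stand at the limit of 10 UMIs. The upper left field holds 52 of 303 sham cells and 9 of 176 splenectomy cells.

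Cells on either side of the class II line differed in other genes as well. The 176 sham and 110 splenectomy cells with 10 or more class II UMIs held 300.4 and 357 CPM of Mgl2, 320.0 and 261 CPM of Hspa1a and 7372 and 6546 CPM of Apoe, the apolipoprotein of lipid-handling macrophages. The 127 and 66 cells under the line held 59.2 and 125 CPM of Mgl2, 49.9 and 52.8 CPM of Hspa1a and 2979 and 3559 CPM of Apoe. Spp1 went the other way, with 1447 and 1428 CPM above the line and 5320 and 6577 CPM below it. The chitinase-like gene Chil3 stood at 386 and 446 CPM above and 1023 and 881 CPM below. C1qa was higher above the line, at 2909 and 2763 CPM against 1584 and 1783 CPM. Gdf15 had no steady side, at 75.8 and 264 CPM above and 261 and 176 CPM below.

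Between the libraries, interferon-stimulated genes were lower in the splenectomy cells and a smaller number of genes, among them S100a8, Cxcl3 and Lpl, were higher. A gene was measured when it had at least 50 counts in the higher library, which 5938 genes did. Of these 25 were at least 2-fold higher after splenectomy (0.421%) and 58 at least 2-fold lower (0.977%), and the median log2 ratio of splenectomy over sham was -0.002. In the list of interferon-stimulated genes, the antiviral programme that type I interferon switches on, 60 of 69 were measured. At the 1.5-fold limit used for lists, 48 of the 60 were lower and 0 higher, beside 4.45% lower and 2.39% higher among all genes. At 2-fold, 20 of the 60 were lower. The list's median log2 ratio was -0.91, and it lay between -1.02 and -0.81 over 16 other settings. The interferon difference had been seen in these data before the list was used here, so the list is no independent evidence of its direction.

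Most genes named below were chosen as the lowest ratios over all genes, so they show the far end of the difference. Within the list, the most abundant gene, Ifi27l2a, stood at 4219 and 2165 CPM (log2 -0.96). The list's highest ratios were those of Slfn2 (884 and 1095 CPM, log2 0.31) and Irf1 (log2 0.005). Oas3, which makes the 2-5A messenger that activates RNase L, had 129 UMIs in the sham cells and 24 in the splenectomy cells, or 32.5 and 10.3 CPM (log2 ratio -1.65, -2.35 to -1.02). The nuclear DNA-binding PYHIN genes Ifi206 (56.4 and 18.1 CPM, log2 -1.64) and Ifi213 (49.9 and 19.4 CPM, log2 -1.37) were also lower. Reads may be split between family members as alike as these. The interferon-inducible GTPase gene Ifi47 stood at 47.1 and 18.1 CPM. Outside the list, Ly6a, a surface antigen of the Ly6 family, was lower (107 and 26.2 CPM, log2 -2.03, -2.44 to -1.64). So were Ube2l6, which joins ISG15 to proteins (36.3 and 12 CPM), Helz2, Parp12 and Slfn4 (62.2 and 25 CPM). Plac8, a monocyte gene, stood at 1004 and 399 CPM (log2 -1.33, -1.44 to -1.23). The transcription factor gene Irf7, which amplifies interferon production, was found in 54.8% (49.0 to 60.5) and 23.9% (17.8 to 30.9) of cells, in 77.9% and 39.8% before thinning and in 21.9% of sham lymphocyte-rule cells. Parp12 came to -0.26 when cells were thinned to 4000 UMIs, beside -1.35, and Ube2l6 to -2.44, beside -1.59. Ly6a came to -1.25 among cells with 10 or more class II UMIs (71.9 and 30.2 CPM) and to -2.81 among those with fewer (145 and 20.7 CPM). Helz2 lay between -2.22 and -0.83 over the 16 settings.

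The lower interferon genes were seen on both sides of the class II line and in the other classes. With 10 or more class II UMIs 40 of 51 measured genes were 1.5-fold lower, with a median of -0.86, and below the line 39 of 52 were lower, with a median of -0.92. Among all measured genes, 210 of 4145 were lower above the line and 269 of 4016 below it. In the Arg1 class 23 of 58 interferon genes were lower (median -0.46), in the Ccl24 class 12 of 24 (median -0.60) and in the resident-gene class 52 of 64 (median -0.86). The share over all genes within each of these classes is not given here, and the differences between the classes were not tested. Per cell at 4000 UMIs, the list summed to a lowest value of 4, a median of 42 and a highest value of 217 UMIs in the sham C1q-high Arg1-low cells, and to 3, 22.5 and 119 in the splenectomy cells. The cells of the 2 libraries overlapped over most of this range. In the same order of libraries the medians were 34 and 19 in the Arg1 class, 38.5 and 14 in the Ccl24 class and 49 and 33 in the resident-gene class.

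Genes higher after splenectomy were fewer and many rested on few cells. Wfdc21, a neutrophil-associated secreted protein gene, stood at 12.6 and 45.6 CPM (log2 1.86, 1.36 to 2.37), and the 5 cells with most of it held 74.5% of its splenectomy UMIs. The fatty acid carrier gene Fabp4 stood at 17.6 and 56.4 CPM (log2 1.68), with 86.3% of splenectomy UMIs in 5 cells. S100a8, a calcium-binding alarmin of neutrophils and monocytes, stood at 172 and 493 CPM (log2 1.52), and Lcn2, which binds bacterial siderophores, at 26.2 and 62.0 CPM (log2 1.24). Beside these stand the neutrophil markers as a whole, at 414 and 787 CPM. The 6 endothelial markers, Fabp4 among them, summed to 29.5 and 71.4 CPM, none at 0. S100a8 came to 0.65 and Lcn2 to 0.69 with at least 40 C1q UMIs. Without the 5% of cells richest in neutrophil and endothelial UMIs, Wfdc21 was at 1.27, Fabp4 at 1.01, S100a8 at 0.98 and Lcn2 at 1.34. Those cells were picked by UMIs that included these same genes, so the values are no independent check. Among cells with 10 or more class II UMIs the values were -0.41, -0.20, 1.09 and -1.07, and Fabp4 was at -0.27 with at least 40 C1q UMIs. The part of other cells' RNA in these values was not tested.

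Of the other 6 named higher genes, Timp1 and Inhba also had most of their splenectomy UMIs in 5 cells, as S100a8 did (50.9%). Timp1, an inhibitor of matrix metalloproteinases, stood at 45.3 and 95.1 CPM (log2 1.07, 0.78 to 1.36), with 53.4% of splenectomy UMIs in 5 cells, and Cxcl3 at 168 and 349 CPM (1.06, 0.91 to 1.21). The matrix proteoglycan gene Vcan stood at 72.3 and 151 CPM, lipoprotein lipase (Lpl) at 174 and 358 CPM in 47.2% and 59.1% of cells before thinning, and the metallothionein gene Mt2 at 104 and 212 CPM (log2 1.03). Mt2 came to 0.39 among cells with 10 or more class II UMIs, under the 1.5-fold limit, and to 2.05 among those with fewer. Inhba, the activin A subunit, had 97 and 116 UMIs (24.4 and 49.9 CPM, log2 1.03), with 70.7% of the splenectomy UMIs in 5 cells and a value of -0.48 among cells with 10 or more class II UMIs.

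**Figure D4:**
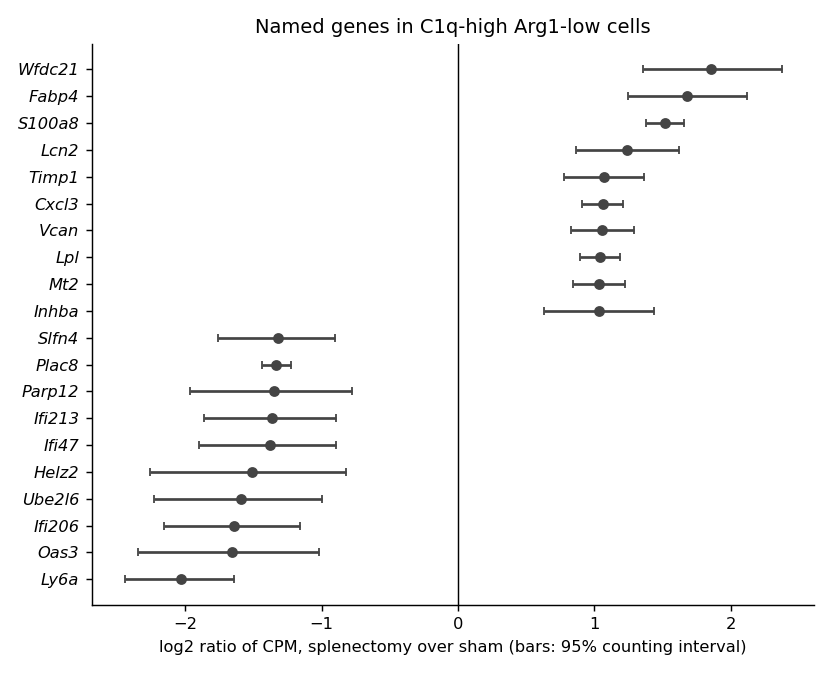
Log2 ratio of CPM, splenectomy over sham, for the 20 named genes in C1q-high Arg1-low cells, with exact 95% intervals for counting error as bars. The lower genes run from -1.32 for Slfn4 to -2.03 for Ly6a and the higher ones from 1.03 for Inhba to 1.86 for Wfdc21.

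Among the other lists, inflammatory genes leaned higher and class II genes did not differ by 1.5-fold. Among all measured genes, 2.39% were 1.5-fold higher and 4.45% lower. Of 30 measured inflammatory cytokine and enzyme genes, 8 were 1.5-fold higher and 1 lower (Il18, at 40.3 and 21.9 CPM), with a median of 0.38. This list's median was 0.32 in the Arg1 class, 0.30 in the Ccl24 class and 0.15 in the resident-gene class. Interleukin-1 beta (Il1b) was the most abundant, at 3609 and 5094 CPM (log2 0.50, 0.46 to 0.53), tumour necrosis factor (Tnf) stood at 294 and 426 CPM (0.53) and interleukin-1 alpha (Il1a) at 131 and 211 CPM (0.69). Csf3, the neutrophil growth factor gene, had 7 and 52 UMIs in 5 and 10 cells. Of the 12 measured class II genes 0 were higher and 0 lower, with a median of 0.05, and H2-Ab1 stood at 1728 and 1711 CPM. Of 14 growth factor genes, 3 were higher (Csf1, Inhba and Pdgfb) and 1 lower (Bmp2, 15.6 and 6.45 CPM), with a median of 0.27. Among the 12 complement genes outside the rule 2 were lower, namely Cfb, the protease of the alternative pathway (53.9 and 25.4 CPM, log2 -1.09), and C4b (21.7 and 12 CPM), and none higher.

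The cells' own marker genes had log2 ratios of 0.46 for Gdf15 (0.29 to 0.62), 0.51 for Mmp12 (0.28 to 0.74) and 0.50 for Igf1 (0.15 to 0.85). Gdf15 lay between -0.57 and 1.80 over the 16 other settings, the lowest with under 10 class II UMIs and the highest with 10 or more. Mmp12 lay between 0.12 and 1.30, with the lowest value at 10 or more class II UMIs and the highest under 10. Igf1 came to -0.18 with limits per 10000 UMIs. Of 31 lineage and growth receptor genes 3 were 1.5-fold lower, beside 4.45% of all genes. Among them were the activating Fc receptor genes Fcgr1 (426 and 218 CPM, log2 -0.97) and Fcgr4 (91.2 and 46.9 CPM, log2 -0.96), while Fcgr3 stood at 425 and 429 CPM. Fcgr1 was found in 69.3% and 50% of cells, and in 87.8% and 77.3% before thinning, beside 4.11% of sham lymphocyte-rule cells.

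The remaining lists had medians between -0.25 and 0.18, beside -0.002 for all genes. At 1.5-fold, 2.39% of all genes were higher and 4.45% lower, and the counts below stand beside these shares. The outermost were the p53 target genes, with 1 of 16 higher, 3 lower and a median of -0.25, and the integrated stress response genes, with 1 of 20 higher, none lower and a median of 0.18. The lipid-associated list had a median of -0.07, and 2 of its 27 measured genes were higher and 1 lower. Of 27 lysosomal genes 2 were lower and none higher, with a median of -0.17, and the protease genes Ctsd (812 and 498 CPM, log2 -0.71) and Ctss (2132 and 1595 CPM) show the size. Of 23 recruited monocyte genes 3 were higher and 4 lower, since Vcan and Hp (73.6 and 142 CPM) went against Ly6a and Plac8. Of 16 resident programme genes outside the rule 3 were higher and 2 lower, with Pf4 at 770 and 1276 CPM and Ccl12 at 1236 and 770 CPM. Among 29 glycolysis and hypoxia genes 1 was higher and 1 lower, and of 44 oxidative phosphorylation genes 0 and 0, with a median of -0.01.

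**Figure D5:**
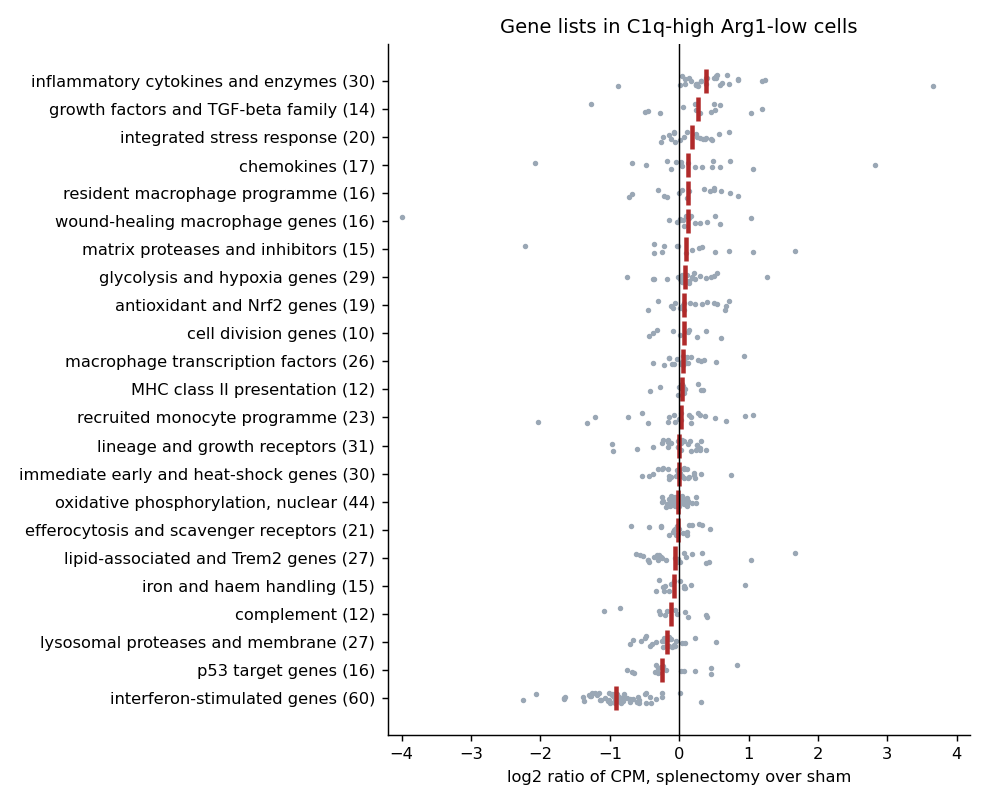
Gene lists in C1q-high Arg1-low cells, ordered by the median log2 ratio of splenectomy over sham (red bar) over the measured genes (grey points, number in brackets), with genes of the rule left out and values past 4 drawn at 4. The interferon-stimulated list lies at -0.91 and the other 22 lists lie between -0.25 and 0.38.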

How the data were processed

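The 2 cell count matrices were used, 1 for each library, with 32285 features. They are deposited counts of UMIs per gene and barcode from Cell Ranger 5.0.0, per the file headers. STAR and the genome build mm10 are named in the submitters' processing notes, and no source used here gives the annotation. The members and the 23 gene lists were chosen with earlier results of these data known. Counts were summed over the cells of a class and divided by its total to give CPM. Ratios carry exact conditional Poisson intervals, where 3 stands in for a count of 0. Genes under 50 counts in both libraries were not measured. The named genes for the libraries are the 10 highest and 10 lowest ratios past 1.5-fold among genes with 100 counts and 10% of cells or more. For each other class they are the 8 highest and 4 lowest by the smaller ratio of both libraries, with the same counts and shares and 2-fold. From each list the 2 highest, the 2 lowest and the most abundant gene could be named, and other genes were named after their values were seen. Mitochondrial, ribosomal, haemoglobin, predicted and immune receptor genes and those of the rule were left out of the ranking. Lymphocyte-rule cells held at least 3 UMIs of Cd79a, Cd79b and Ms4a1 or of Cd3d, Cd3e and Cd3g and fewer than 3 of Cd68, Csf1r, Adgre1 and Mertk together, and thinning used seed 7. Doublets were scored with Scrublet in scanpy 1.11.5 and kept, and removing the highest scores (4.98% and 4.07% of barcodes) was an alternative, since Scrublet's own limit marked 2.11% and 0.0590%. On simulated Poisson counts with these totals for the library comparison, 185 of 199 genes altered 2.5-fold passed 2-fold over 5961 genes, as did 4 of 5762 unaltered ones. For the sham Ccl24 class, the smallest, 133 of 161 altered and 142 of 5691 unaltered genes passed over 5852 genes. The report's class comparisons need both libraries, and for the splenectomy Ccl24 class it was 158 of 168 and 3 of 4365 over 4533. The simulated counts had no spread between cells or animals, so they cover counting error only and give no rate of false calls in the real cells. Scripts ran under python 3.11.15 with scipy 1.17.1, numpy 2.4.6 and pandas 2.3.3. Promoters come from the RefSeq table on GRCm38.p6, and the share with a motif is over all its entries off chromosome 18. Reads were not analysed here.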

Additional observations from a re-analysis of the deposited data

Results flagged for a closer look

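Inhba, the activin A subunit, differed between the libraries in opposite directions in neighbouring classes. Its log2 ratio of splenectomy over sham was 1.03 (0.63 to 1.43) in C1q-high Arg1-low cells, from 97 and 116 UMIs, and -1.04 (-1.62 to -0.48) in the resident-gene class, from 87 and 39 UMIs. In the Arg1 class it was 0.44 and in the Ccl24 class -0.05. The difference between the classes was not tested, and in the C1q-high Arg1-low cells the 5 richest cells held 57.7% and 70.7% of the UMIs.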

How the results depend on the processing

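No paired analysis was possible because each group holds 1 library. The share of C1q-high Arg1-low cells was smaller in the splenectomy library under each setting tried. Among C1q-positive cells it was 40.3% and 30.7% with limits per 10000 UMIs, 30.8% and 22.1% with at least 8000 UMIs per cell, 27.9% and 21.9% with fewer than 2 Arg1 UMIs, and 38.1% in the sham library with fewer than 10. Among cells past the first limits it was 12.7% and 8.06% with at least 10 C1q UMIs, 8.65% and 5.22% with at least 40, and in the sham library 8.93% with fewer than 2 and 12.2% with fewer than 10 Arg1 UMIs. Counts of genes moved with the count limit, the fold and the depth, which by construction set how many genes can pass. Genes higher after splenectomy, 25 in the report, were 65 with at least 20 counts, 7 with at least 200 counts, 7 in thinned cells, 142 at 1.5-fold, 16 with at least 40 C1q UMIs and 16 with fewer than 2 Arg1 UMIs, and the cause of the last 2 values was not tested. Genes lower, 58 in the report, were 157, 19, 37 and 264 under the first 4 of these. Against the Arg1 class, 111 higher genes became 195 with at least 20 counts, 34 with at least 200 counts, 63 in thinned cells and 249 at 1.5-fold, and 43 lower ones became 25 with at least 200 counts and 149 at 1.5-fold. Against the Ccl24 class, 111 higher genes became 172, 35, 52 and 267, and 60 lower ones 97, 26, 33 and 173, in the same order of settings. Against the resident-gene class, 92 higher genes became 42 with at least 200 counts, 45 in thinned cells and 208 at 1.5-fold, and 273 lower ones 113, 88 and 726. Before thinning, shares of cells were 19.5% for Gdf15, 12.2% for Mmp12 and 18.5% and 22.7% for Igf1, with 71.0% and 74.4% for H2-Ab1, 48.8% and 33.5% for Ly6c2 and 58.7% and 44.3% for Plac8, beside 13.2%, 7.59%, 11.2%, 15.9%, 60.1%, 64.8%, 37.0%, 19.3%, 51.2% and 35.2% at 4000 UMIs. Log2 ratios of splenectomy over sham turned sign for Wfdc21 (-0.41), Lcn2 (-1.07) and Inhba (-0.48) among cells with 10 or more class II UMIs, and for Fabp4 there (-0.20), with at least 40 C1q UMIs (-0.27) and with fewer than 2 Arg1 UMIs (-0.32), and the cause was not tested. The settings on class II UMIs and the one leaving out the cells richest in neutrophil and endothelial UMIs (16 and 9 cells) were chosen after seeing the data. The median of the chemokine list over the resident-gene class turned to 0.0145 with limits per 10000 UMIs. With 1 library a group the depth bounds counting error only, and genes under 50 counts were not read.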

Other observations

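RNA of heart muscle cells was found in C1q-high Arg1-low cells and in the resident-gene class more than in the Arg1 class. The 6 cardiomyocyte markers summed to 53.7 and 63.3 CPM in the C1q-high Arg1-low cells, to 86.7 and 66.6 CPM in the resident-gene class, to 8.69 and 6.98 CPM in the Arg1 class and to 44.5 and 9.11 CPM in the Ccl24 class. Cells with under 20 C1q UMIs held 11.6 and 12.7 CPM and lymphocyte-rule cells 31.9 and 12.3 CPM. In the C1q-high Arg1-low cells 230 of 303 sham cells held none of these UMIs and 12 held 5 or more, and of 176 splenectomy cells 127 held none and 8 held 5 or more. Myl2, a light chain of ventricular myosin, stood at 21.7 and 25.4 CPM in the C1q-high Arg1-low cells and at 2.02 and 1.90 CPM in the Arg1 class.

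Retnla, a secreted protein of alternatively activated macrophages, had 914 UMIs in 5 sham cells, 793 of them in 1 cell, and 1 UMI in the splenectomy cells. Prg4, the lubricin gene, had 184 UMIs in 1 sham cell and 1 UMI in the splenectomy cells. Ccl17, a chemokine gene of dendritic cells and macrophages, had 13 UMIs in 4 sham cells and 54 in 12 splenectomy cells.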
